A study of Canis lupus familiaris with 29 samples.

Results

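MYPN, KLHL14, GJA1, SLC24A2, RDX, FLII and RIDA are genes whose RNA was lower in nearly all canine pheochromocytomas and paragangliomas (PPGLs) than in normal adrenal medulla (NAM). They were chosen by name, with earlier results of these samples known, because their level in PPGLs fell outside the range of the NAMs or nearly so. They are 7 of the 30951 genes of the count table, and all 7 were found in it. Their difference between PPGLs and NAMs is therefore how they were picked, and it is given as a description with no test. For the 7 genes, tests were kept to measures that the choice did not use: the comparison of the PPGL groups with each other, and the relation of each gene to CYP11A1, a marker of the adrenal cortex, within the NAMs and within the group 2 tumors, with the relations of the 7 genes to marker lists and to each other across the NAMs beside them.

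RNA of 29 dogs was sequenced: 10 NAMs from healthy dogs kept for research, and 19 PPGLs from client-owned patients seen at several clinics. The authors divided the tumors into PPGL group 1 (7 tumors) and PPGL group 2 (12 tumors) by their place in a principal component analysis of these same samples, so a p between the groups describes that division. Freezing was direct for all NAMs, whereas part of the tumor pieces went into an RNA-preserving liquid beforehand, and effects of origin, sampling or storage cannot be told apart from those of tissue. The sum of counted reads per sample lay between 19258054 and 35918182 for NAMs and between 18208718 and 31919833 for PPGLs. Levels are CPM, counts per 1000000 counted reads after TMM normalization. A count of 3 reads was the smallest taken as detectable. By the sum of counted reads, without TMM normalization, it stands for 0.0835 to 0.156 CPM in a NAM and 0.0940 to 0.165 CPM in a PPGL. Such limits cover counting error only, while the 95% intervals of slopes given further on include differences between dogs. The edgeR test gives no SE, so each SE was derived from the log2 value and the F statistic. The intervals take a normal distribution of that SE, are approximate, and are narrower than the p of edgeR would give. The strand setting of the read counting is not given in the sources used here, so genes that overlap another gene are uncertain.

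As background, the adrenal medulla consists of chromaffin cells that make catecholamines, lies within a cortex that makes steroids, and is held together by nerve fibers, supporting glia and vessels. A piece cut from the medulla may carry cortical cells, so a gene that is lower in a tumor may have been expressed by chromaffin cells, by cortical cells or by others in the normal piece. The genes described differ in what their products do: some shape the actin cytoskeleton, some connect cells or move ions across the membrane, and others serve protein turnover or amino acid breakdown.

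The cortical content of the pieces differed. CYP11A1, the enzyme that starts steroid synthesis, ranged from 2408 CPM in NAM replicate 4 to 10622 CPM in NAM replicate 8, with a median of 6226 CPM (n = 10). In PPGL group 1 it ranged from 0 to 34.4 CPM with a median of 0.613 CPM, and replicates 3 and 7 had no read. In PPGL group 2 it ranged from 14.3 CPM in replicate 7 to 4539.98 CPM in replicate 10, with a median of 475 CPM. Replicate 10 of group 2 was the only tumor within the range of the NAMs, above 3 of them. Of 10 cortical markers, 9 were lower in PPGLs at an adjusted p below 0.05 by edgeR, and HSD3B2 was not (log2 FC -2.23, FDR-adjusted p = 0.0889). The 10 cortical markers summed to a median of 34389 CPM in NAMs and 1152 CPM in PPGLs, and CYP17A1 was the most abundant in both.

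Several tumors stood apart in other markers. In group 1, TH, which makes the precursor of the catecholamines, was at 10.8 CPM in replicate 3 and 2.15 CPM in replicate 5, against 1057 CPM in the lowest NAM. Their DDC was at 0.285 and 0.358 CPM. Replicate 7 of group 1 kept TH at 1382 CPM but had CHGB at only 27.1 CPM, and 5688 CPM was the lowest NAM value. In group 2, replicate 7 had TH at 32.3 CPM, and replicate 11 was high in markers of fibroblasts (COL1A1 at 7777 CPM), smooth muscle (TAGLN at 1364 CPM) and leukocytes (PTPRC at 118 CPM). Between PPGLs and NAMs, 3 of 12 chromaffin markers rose and 1 fell (median log2 FC 0.42, with 2 falling without replicate 11 of group 2 or without replicates 3, 5 and 7 of group 1), 5 of 7 endothelial markers fell (-0.75), and 4 of 6 fibroblast markers rose (2.20). Without replicate 11 of group 2, 3 fibroblast markers rose and 1 fell (1.08). Of 5 smooth muscle markers 2 rose (1.23), but without replicate 11 of group 2 neither passed and another fell (0.48). Of 5 leukocyte markers 1 rose and 1 fell, as did 1 each of 2 hepatocyte markers, 1 of 3 capsule markers fell, and the 6 Schwann and sustentacular markers did not pass (median log2 FC -1.0004). Values for the 7 genes are therefore also given without the 3 group 1 tumors low in chromaffin markers, and without replicate 11 of group 2. These 3 tumors were not set by 1 cut, and replicate 11 of group 2 was low in chromaffin markers too. The mean log2 CPM of the 12 chromaffin markers was 7.44 in it, against 7.59 in replicate 7 of group 1.

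All 19 PPGLs lay below every NAM in MYPN, SLC24A2, KLHL14, RDX and FLII. That held for 5 of the 7 genes, beside 0.481% of the 14766 genes tested between PPGLs and NAMs. GJA1 and RIDA were below every NAM in 18 of 19 tumors, with replicate 10 of group 2 as the exception in both. All 7 genes thus met this looser count, beside 1.62% of the genes tested. At an adjusted p below 0.05, 37.5% of the genes tested differed between the tissues, 22.3% being higher and 15.2% lower in PPGLs. Since this contrast chose the genes, nothing is read from these shares. In bulk tissue, fewer cells of a type and less RNA per cell cannot be told apart.

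**Figure D1:**
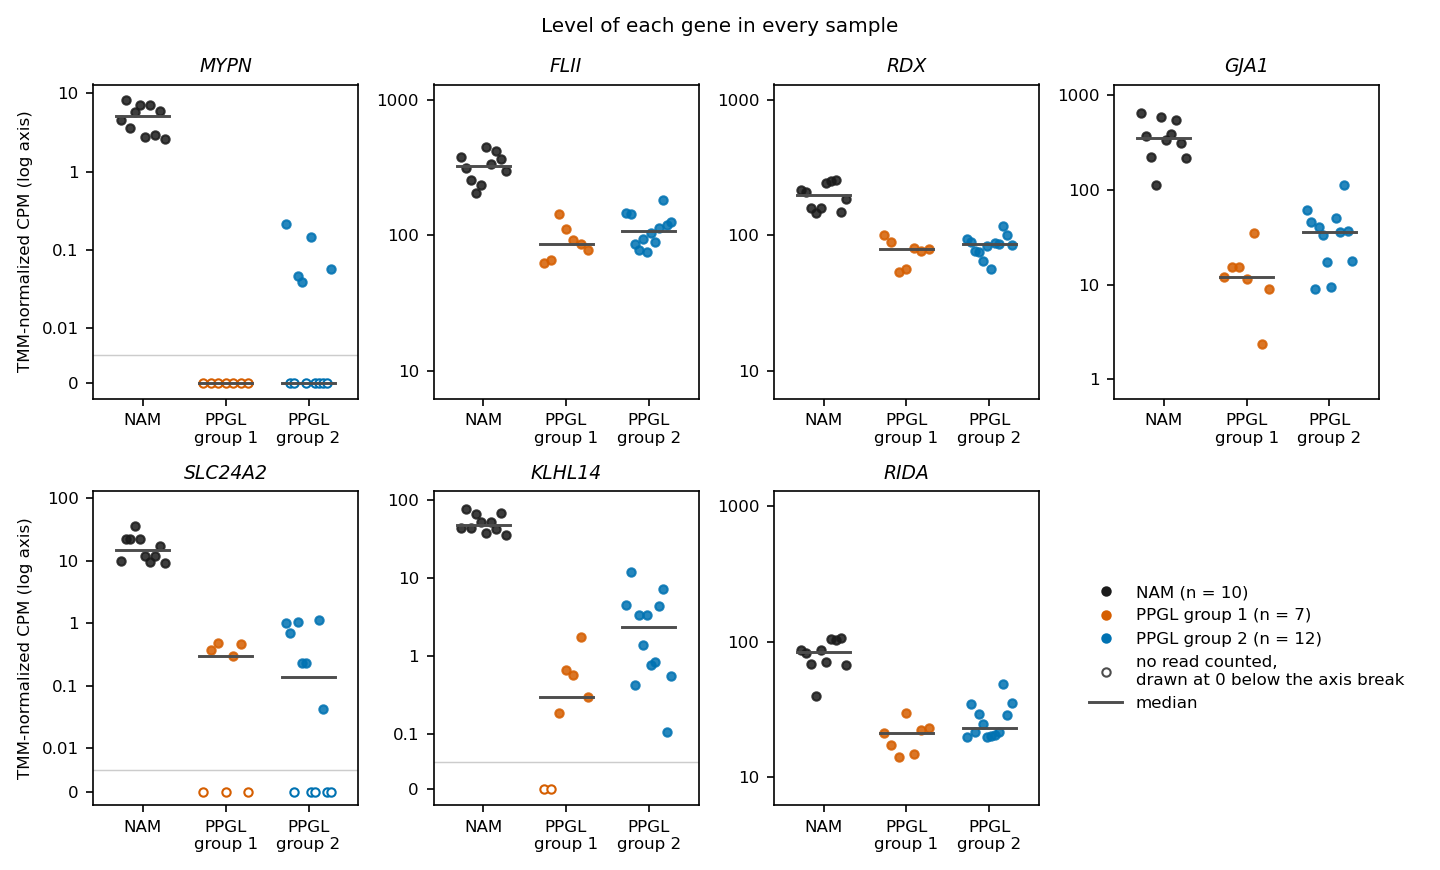
Each panel shows 1 gene in all 29 samples, with the TMM-normalized CPM on a log axis and 1 point per sample for the 10 NAMs, the 7 tumors of group 1 and the 12 tumors of group 2, and a bar at the median. Open points mark samples with no read. MYPN had no read in any of the 7 group 1 tumors, whereas GJA1, RDX, FLII and RIDA stayed detectable in all 19 PPGLs.

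The cytoskeletal genes come first. MYPN (ENSCAFG00000013541, chromosome 4 from 19381416 to 19465995 in CanFam3.1) encodes myopalladin, which ties nebulin and alpha-actinin together in the Z-disc of striated muscle. It was low but present in every NAM, from 2.64 CPM in replicate 10 to 8.33 CPM in replicate 2, with a median of 5.18 CPM and a mean of 5.09 ± 2.06 CPM (SD, n = 10). No read fell on it in any of the 7 group 1 tumors. In group 2, 7 of 12 tumors had no read, and the other 5 together had 11 reads, 5 of them in replicate 1 at 0.211 CPM. The lowest NAM lay 12.5-fold above this highest tumor, so the groups were far from overlapping. The mean was at least 37.8-fold lower in group 1, with 3 reads per library taken as the limit of detection. That limit was scaled by the sum of counted reads without TMM normalization, whereas the NAM mean is TMM-normalized. The mean of group 2 also lay under that limit, so no fold is given for it or for all PPGLs. The group 1 tumors low in chromaffin markers and replicate 11 of group 2 had no read, so the 11 reads came from other tumors.

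Other striated muscle genes, of which 4 of 8 markers could be tested, differed among themselves. MYH7 was at 33.4 ± 5.12 CPM in NAMs, 122 ± 165 CPM in group 1 and 29.3 ± 10.4 CPM in group 2. Without the 3 tumors low in chromaffin markers, group 1 was at 25.9 ± 13.5 CPM. ACTA1 was at 42.4 ± 28.9 CPM in NAMs and at 28.0 ± 19.8 CPM in PPGLs. In group 1, CKM was low as well, at 0.137 ± 0.158 CPM with no read in 3 of 7 tumors, and its highest tumor at 0.336 CPM was below the lowest NAM at 1.25 CPM. In group 2 it was at 2.99 ± 4.13 CPM. Over all PPGLs CKM fell, as the only 1 of the 4 tested, from 7.89 ± 5.26 CPM in NAMs to 1.94 ± 3.53 CPM (log2 FC -2.02, FDR-adjusted p = 0.0410), but did not pass without the 3 group 1 tumors low in chromaffin markers (log2 FC -1.79, FDR-adjusted p = 0.0651). The 8 markers of striated muscle summed to a median of 80.5 CPM in NAMs and 62.8 CPM in PPGLs, and their part in the MYPN result was not tested. Beside MYPN, 13 genes of the Z-disc and of the palladin family were tested, of which 3 rose and 2 fell in PPGLs. Their median log2 FC was 0.01, -0.01 with DESeq2 size factors and -0.02 without replicate 11 of group 2, beside 0.13 over all genes tested. PALLD, the closest relative of MYPN on the list, fell from 258 ± 152 CPM to 59.1 ± 43.3 CPM (log2 FC -2.13, SE 0.33), and was below every NAM in 15 of 19 tumors. ACTN2, a muscle alpha-actinin, fell from 17.99 ± 8.67 CPM to 5.10 ± 4.19 CPM (log2 FC -1.82, SE 0.37), while ACTN1 rose (log2 FC 0.83, SE 0.19).

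FLII (ENSCAFG00000018283, chromosome 5 from 41302767 to 41314862) encodes a gelsolin-like protein with leucine-rich repeats that binds actin and also acts with nuclear receptors. In NAMs it ranged from 206 CPM in replicate 4 to 452 CPM in replicate 6, with a median of 326 CPM and a mean of 326 ± 79.5 CPM. The group 1 tumors ranged from 62.4 to 143 CPM with a median of 86.6 CPM, and the group 2 tumors from 74.9 to 181 CPM with a median of 108 CPM. The groups of tumors overlapped each other widely and left a narrow gap to the NAMs, with the lowest NAM 1.14-fold above the highest tumor, replicate 10 of group 2. Its mean was 3.58-fold lower in group 1 and 2.89-fold lower in group 2. Of 8 other genes of the gelsolin family or that bind FLII, 2 fell in PPGLs and the other 6 did not pass, and their median log2 FC was -0.06 (0.02 with library size alone). LRRFIP1, which binds FLII, fell from 287 ± 38.7 CPM to 179 ± 83.7 CPM (log2 FC -0.69, SE 0.19), and GSN, gelsolin itself, had a log2 FC of -0.80 that did not pass (FDR-adjusted p = 0.0557).

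RDX (ENSCAFG00000014273, chromosome 5 from 22571286 to 22642811) encodes radixin, which with ezrin and moesin links actin to the plasma membrane. The NAMs ranged from 145 CPM in replicate 4 to 256 CPM in replicate 8 (median 197 CPM), and the PPGLs from 53.6 to 118 CPM (median 83.4 CPM). Tumors of both groups lay together below the NAMs, the lowest NAM being 1.23-fold above the highest tumor, again replicate 10 of group 2. The spread was narrow, with an SD of 22.0% of the mean in NAMs and 20.0% in PPGLs. The mean was 2.42-fold lower in PPGLs, the smallest fold among the 7 genes. Of 15 other genes of this family and its partners, 2 rose and 3 fell, with a median log2 FC of -0.25, and 5 fell without replicate 11 of group 2. EZR, ezrin, fell from 535 ± 102 CPM to 364 ± 66.9 CPM (log2 FC -0.56, SE 0.11), while MSN, moesin, did not pass (log2 FC -0.61, FDR-adjusted p = 0.0683). SLC9A3R1, a scaffold that binds these proteins at the membrane, fell from 133 ± 61.1 CPM to 14.9 ± 18.6 CPM (log2 FC -3.16, SE 0.48), and it had a slope of 1.00 on CYP11A1 across NAMs (FDR-adjusted p = 0.00342).

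Next are the genes of the cell membrane. GJA1 (ENSCAFG00000000958, chromosome 1 from 60929097 to 60942936) encodes connexin 43, which forms gap junction channels between neighboring cells. It ranged from 112 CPM in NAM replicate 4 to 649 CPM in NAM replicate 1, with a median of 353 CPM. The group 1 tumors ranged from 2.33 CPM in replicate 6 to 35.2 CPM in replicate 5 (median 12.1 CPM), and the group 2 tumors from 8.96 CPM in replicate 3 to 114 CPM in replicate 10 (median 36.1 CPM). Replicate 10 alone reached the NAM range, and the next tumor was at 61.8 CPM. The mean was 26.0-fold lower in group 1 and 9.57-fold lower in group 2. Of 9 other connexin, pannexin and junction scaffold genes tested, 5 rose and 1 fell in PPGLs, with a median log2 FC of 1.17, and these counts were the same with DESeq2 size factors and with library size alone. TJP1, a scaffold of tight and gap junctions, was the gene that fell (log2 FC -0.54, SE 0.15). GJC1 and GJA5, other connexins, rose with log2 FC 1.69 (SE 0.45) and 1.76 (SE 0.39), from a low level. Per kilobase of exon, GJA1 still led GJA5, GJC1 and GJA10 in PPGLs, at 18.5 CPM against 4.74, 4.73 and 1.48 CPM, while GJD2 was at 27.3 CPM.

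SLC24A2 (ENSCAFG00000001623, chromosome 11 from 39278370 to 39519222) encodes an exchanger that removes calcium from neurons in return for sodium, together with potassium. A gene without a name lies within its span on the opposite strand, so its counts carry the strand caveat above. In NAMs it ranged from 9.09 CPM in replicate 10 to 36.2 CPM in replicate 4, with a median of 14.6 CPM. Of the group 1 tumors 3 had no read and the highest, replicate 3, was at 0.476 CPM (median 0.298 CPM). Of the group 2 tumors 5 had no read and the highest, replicate 9, was at 1.13 CPM (median 0.137 CPM). No tumor came near the NAMs, of which the lowest was 8.05-fold above the highest tumor. The mean was 54.4-fold lower in PPGLs, on 133 reads in 19 tumors, and 52.6-fold lower without the 3 group 1 tumors low in chromaffin markers. Of 13 other calcium exchangers and pumps, 3 rose and 1 fell, with a median log2 FC of 0.46 beside 0.13 over all genes. Without the 3 group 1 tumors low in chromaffin markers, 4 rose and 2 fell (median 0.26). SLC8B1, the mitochondrial exchanger, fell from 28.8 ± 10.3 CPM to 8.90 ± 5.87 CPM (log2 FC -1.69, SE 0.29). ATP2B2, a calcium pump of the plasma membrane, rose from 2.14 ± 0.908 CPM to 22.2 ± 16.9 CPM (log2 FC 3.37, SE 0.49) and was above every NAM in 17 of 19 tumors. ATP2B3 and SLC8A3 rose as well, with log2 FC 1.27 (SE 0.28) and 1.15 (SE 0.31).

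KLHL14 (ENSCAFG00000018002, chromosome 7 from 56974692 to 57088039) belongs to the kelch-like proteins, many of which bring substrates to the CUL3 ubiquitin ligase, and its product binds torsinA. The NAMs ranged from 35.3 CPM in replicate 10 to 76.5 CPM in replicate 2, with a median of 47.7 CPM. Group 1 ranged from 0 CPM, in replicates 1 and 2, to 1.75 CPM in replicate 6 (median 0.302 CPM). Group 2 ranged from 0.106 CPM in replicate 11 to 12.1 CPM in replicate 2 (median 2.39 CPM), with an SD of 108% of the mean. The tumor groups overlapped, and the lowest NAM lay 2.92-fold above the highest tumor. The mean was 103.9-fold lower in group 1, 179-fold without its replicate 6, and 15.8-fold lower in group 2. Of 31 other kelch-like genes and partners, 6 rose and 5 fell, with a median log2 FC of 0.21, with library size alone 8 rose and 3 fell, and with DESeq2 size factors 5 rose and 6 fell. The named relatives ranged from KLHL1, which rose from 0.790 ± 0.641 CPM to 45.2 ± 54.7 CPM (log2 FC 5.82, SE 1.17), to KLHL40, which fell from 3.88 ± 1.93 CPM to 1.38 ± 1.07 CPM (log2 FC -1.49, SE 0.38). CUL3 itself did not pass (log2 FC -0.26, FDR-adjusted p = 0.153). TOR1A, torsinA, rose (log2 FC 0.32, FDR-adjusted p = 0.0360), but did not pass without the 3 group 1 tumors low in chromaffin markers (log2 FC 0.28, FDR-adjusted p = 0.0665).

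RIDA (ENSCAFG00000030250, chromosome 13 from 348860 to 361522) encodes a deaminase that clears reactive imines released by enzymes of amino acid breakdown. Its span shares 366 bases with POP1 on the opposite strand, so reads there may belong to either gene. POP1 itself had a log2 FC of 0.30 that did not pass (FDR-adjusted p = 0.373). RIDA ranged in NAMs from 39.8 CPM in replicate 4, set apart from the next at 67.7 CPM, to 106 CPM in replicate 9, with a median of 84.6 CPM. The group 1 tumors ranged from 14.1 to 30.1 CPM (median 21.4 CPM), and the group 2 tumors from 19.7 CPM to 48.7 CPM in replicate 10 (median 23.3 CPM). The overlap with the NAMs consisted of this tumor and NAM replicate 4, and the next tumor was at 35.2 CPM. The mean was 4.00-fold lower in group 1 and 3.02-fold lower in group 2. Of 10 other enzymes of serine, threonine and branched-chain amino acids, 4 fell and the other 6 did not pass, and 5 fell with DESeq2 size factors or library size alone. Their median log2 FC was -0.37. SDSL, a serine dehydratase-like enzyme, fell from 52.7 ± 23.7 CPM to 13.9 ± 9.86 CPM (log2 FC -1.93, SE 0.39). BCAT2, a mitochondrial aminotransferase of branched-chain amino acids, fell from 90.8 ± 34.9 CPM to 29.5 ± 15.9 CPM (log2 FC -1.62, SE 0.25) and had a slope of 0.70 on CYP11A1 across NAMs (FDR-adjusted p = 0.00975).

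On a scale per kilobase of exon, the NAM means ran from GJA1 at 230 CPM through FLII at 66.2, RDX at 59.4 and RIDA at 58.0 to KLHL14 at 15.5, SLC24A2 at 7.12 and MYPN at 1.19 CPM. Among these, FLII, RDX and RIDA differed by less than their SD of 16.1, 13.1 and 14.8 CPM. In PPGLs the order per kilobase was RDX at 24.6, FLII at 21.3, GJA1 at 18.5 and RIDA at 17.5 CPM, within reach of the SD of GJA1 at 16.1 CPM, and then KLHL14 at 0.672 and SLC24A2 at 0.131 CPM, with MYPN under the limit of detection. The share of the NAM mean that was left in PPGLs was 41.4% for RDX, 32.1% for FLII and 30.1% for RIDA. It was 8.02% for GJA1, 4.34% for KLHL14 and 1.84% for SLC24A2. Without the 3 group 1 tumors low in chromaffin markers, the mean in PPGLs was 19.9-fold lower for KLHL14, 11.7-fold for GJA1, 3.15-fold for RIDA, 3.11-fold for FLII and 2.36-fold for RDX, and without replicate 11 of group 2 it was 21.9-, 12.6-, 3.35-, 3.14- and 2.45-fold lower.

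Group 1 was then compared with group 2, a contrast that did not choose the genes. Of the 7 genes, 5 had enough reads to be tested, and MYPN and SLC24A2 did not pass the filter on low counts. By edgeR, 0 of the 5 passed an adjusted p below 0.1, beside 6.92% of the 14666 genes tested (2.95% lower and 3.97% higher in group 1). KLHL14 and GJA1 had an unadjusted p below 0.05 by edgeR (0.00975 and 0.00923), as did 2845 of all 14666 genes. By the Mann-Whitney U-test 2 of the 5 had one, beside 2136 of all genes, and 0 of 5 were called. DESeq2 called both, GJA1 with an adjusted p of 0.0314 and KLHL14 with 0.0180, beside 1793 of all genes against 1015 by edgeR. KLHL14 was lower in group 1 with a log2 FC of -2.70 (SE 0.95, FDR-adjusted p = 0.117), and GJA1 with -1.43 (SE 0.50, FDR-adjusted p = 0.114). Single tumors decided the side of the threshold: GJA1 passed without replicate 5 of group 1 (log2 FC -1.82, FDR-adjusted p = 0.0529), replicate 3 of group 2 (0.0852) or replicate 7 of group 2 (0.0867), and KLHL14 passed without replicate 6 of group 1 (log2 FC -3.45, FDR-adjusted p = 0.0639) or replicate 11 of group 2 (0.0896). Without the 3 group 1 tumors low in chromaffin markers, the log2 FC was -2.43 for KLHL14 (FDR-adjusted p = 0.351) and -1.93 for GJA1 (0.152). Over all alternatives the adjusted p ranged from 0.0180 to 0.460 for KLHL14 and from 0.0314 to 0.454 for GJA1. RIDA (log2 FC -0.40, SE 0.21), FLII (-0.30, SE 0.19) and RDX (-0.14, SE 0.16) had adjusted p-values of 0.307, 0.408 and 0.665. The cortical markers moved with the split, since 9 of 10 were lower in group 1 with a median log2 FC of -6.54, and 2 of 5 smooth muscle markers were lower as well (median -2.02), with a median of -2.09 for 6 fibroblast markers, which did not pass. Without replicate 11 of group 2 these medians were -1.13 and -0.89. The part of these cell types in the values of KLHL14 and GJA1 was not tested in that comparison.

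The relation to CYP11A1 across the 10 NAMs asks which genes ran with cortical content in normal pieces. CYP11A1 followed the mean of the other cortical markers (r = 0.96, permutation p = 2e-05, rho = 0.95 with permutation p = 0.0001) and ran opposite to the chromaffin markers (r = -0.73, permutation p = 0.0196, adjusted over 10 lists 0.0653) and to the markers of Schwann and sustentacular cells (r = -0.73, permutation p = 0.0180, adjusted 0.0653). The rho of these opposite relations was -0.76 (permutation p = 0.0153) and -0.70 (permutation p = 0.0309), and without replicates 4 and 5 the r of the 3 lists was 0.91, -0.65 and -0.81. Fitted across all genes with edgeR, 7 of 9 other cortical markers had a positive slope at an adjusted p below 0.05, with a median of 0.94 log2 units per log2 unit of CYP11A1. Of 12 chromaffin markers 4 had a negative slope, with a median of -0.66, and of 6 Schwann and sustentacular markers 3, with a median of -0.53. With library size alone, 9 chromaffin markers (median -0.89) and 4 Schwann and sustentacular markers (median -0.69) had a negative slope. The median slope over all 14839 genes tested was -0.00.

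**Figure D2:**
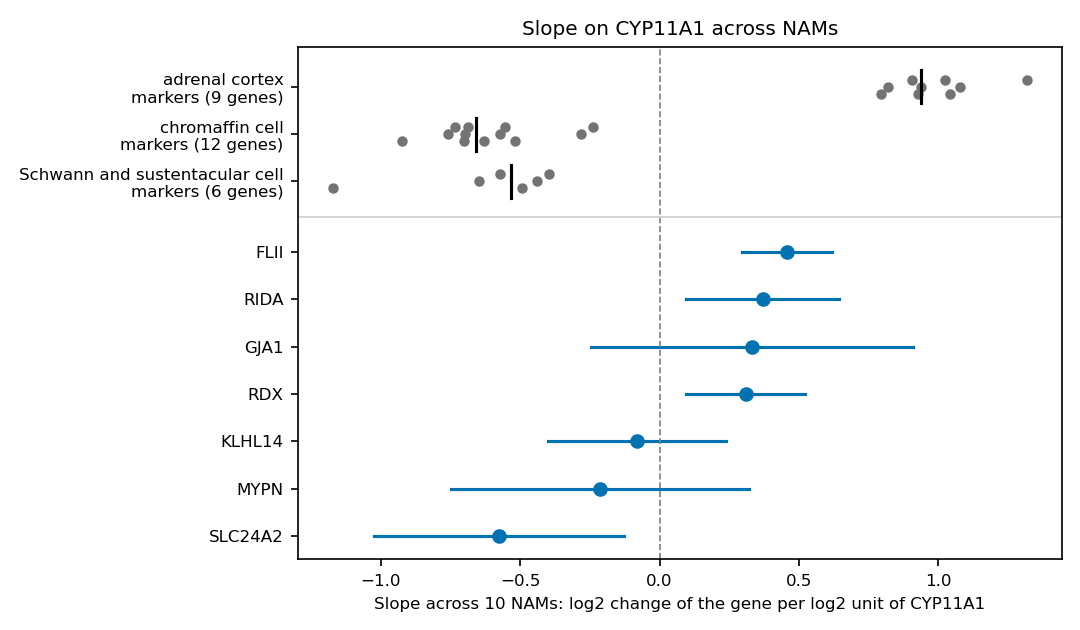
Slopes of the 7 genes on CYP11A1 across 10 NAMs, in log2 units per log2 unit of CYP11A1, with lines over 95% intervals from the SE. Above them, points give the slopes of cortical, chromaffin, and Schwann and sustentacular markers with a bar at their medians of 0.94, -0.66 and -0.53, and FLII at 0.46 lies between the cortical and the chromaffin markers.

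Of the 7 genes, FLII alone had a slope at an adjusted p below 0.05 by edgeR, which is 1 of 7 beside 18% of the genes tested (8.69% with a positive and 9.27% with a negative slope). Its slope was 0.46 (SE 0.08, FDR-adjusted p = 0.00785), less steep than the cortical markers, whose slopes ran from 0.79 to 1.32. Over log2 CPM, FLII and CYP11A1 had r = 0.90 (permutation p = 0.00053) and rho = 0.94 (permutation p = 0.00028), and r = 0.76 without replicates 4 and 5, the NAMs farthest from the median. After adjustment over the 7 relations the p of r was 0.00371. Without NAM replicate 4 the slope of FLII was 0.42 and its adjusted p 0.0563, so the call, but not the size of the slope, rests on that sample. With any 1 NAM left out, the slope ran from 0.42 to 0.49. Without replicate 4 the genes called over the whole table also dropped, from 2665 to 318. FLII also had the highest r with the cortical marker list among the 70 relations of the 7 genes to 10 marker lists (r = 0.93, permutation p = 0.00019, adjusted 0.0133, rho = 0.89 with permutation p = 0.00126, adjusted 0.0882, and r = 0.86 without the NAMs farthest from the median).

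RIDA, RDX and GJA1 had positive slopes that did not pass. RIDA had 0.37 (SE 0.14, FDR-adjusted p = 0.0871) with r = 0.69 (permutation p = 0.0209, adjusted 0.0730) and rho = 0.66 (permutation p = 0.0437), and r = 0.67 without replicates 4 and 5. RDX had 0.31 (SE 0.11, FDR-adjusted p = 0.0716) with r = 0.67 (permutation p = 0.0415, adjusted 0.0969) and rho = 0.68 (permutation p = 0.0345). Without replicates 4 and 5 the r of RDX with CYP11A1 was 0.43, so this r depended on them. Leaving out these NAMs also narrows the range of CYP11A1, which can by itself weaken r. The r of RDX with the cortical marker list was 0.77, and 0.64 without the same samples. DESeq2 called both, with adjusted p-values of 0.0481 for RIDA and 0.0346 for RDX, which with FLII makes 3 of 7 beside 4010 of all genes (2665 by edgeR). RDX also passed on the other cortical markers (slope 0.34, FDR-adjusted p = 0.0285). GJA1 had 0.33 (SE 0.30, FDR-adjusted p = 0.457) with r = 0.49 (permutation p = 0.147) and rho = 0.37 (permutation p = 0.297), and r = 0.64 without replicates 4 and 5. Here too single NAMs mattered: without replicate 5 the slopes of GJA1 and RIDA were 0.97 and 0.58 (FDR-adjusted p = 0.0297 and 0.0223), without replicate 4 they were 0.05 and 0.19, and without replicate 9 that of RDX was 0.38 (FDR-adjusted p = 0.0171).

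SLC24A2, MYPN and KLHL14 had slopes of the opposite sign or near 0. For SLC24A2 it was -0.58 (SE 0.23, FDR-adjusted p = 0.0996), with r = -0.54 (permutation p = 0.114) and rho = -0.42 (permutation p = 0.234). This slope lay within the range of the chromaffin markers and also within that of the Schwann and sustentacular markers. The r of SLC24A2 was 0.04 without replicates 4 and 5, so it depended on them, though here too a narrower range of CYP11A1 can weaken r. The slope of SLC24A2 passed without NAM replicate 10 (-0.71, FDR-adjusted p = 0.0346) and with library size alone (-0.74, FDR-adjusted p = 0.0492). MYPN had -0.21 (SE 0.27, FDR-adjusted p = 0.612) with r = -0.25 (permutation p = 0.472), rho = -0.18 (permutation p = 0.631) and r = 0.08 without replicates 4 and 5. KLHL14 had -0.08 (SE 0.16, FDR-adjusted p = 0.758) with r = -0.14 (permutation p = 0.697), rho = -0.26 (permutation p = 0.469) and r = 0.21 without them, and its slope turned to 0.05 without replicate 4. The 95% interval of KLHL14, -0.40 to 0.24, lay below the slopes of all 9 cortical markers, as did that of MYPN, -0.75 to 0.32, and that of SLC24A2, -1.02 to -0.13. The intervals of FLII, RDX and RIDA, which ended at 0.62, 0.52 and 0.64, lay below them too, and only that of GJA1, -0.25 to 0.91, reached into them.

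NAM replicate 4, with the lowest CYP11A1, was the lowest NAM in GJA1, RDX, FLII and RIDA and the highest in SLC24A2. Replicate 10 was the lowest NAM in MYPN, KLHL14 and SLC24A2. Among the 21 pairs of the 7 genes across NAMs, MYPN and KLHL14 had the highest r at 0.84 (permutation p = 0.00352, adjusted 0.0614), with rho = 0.88 (permutation p = 0.00168, adjusted 0.0353) and r = 0.72 without the NAMs farthest from the median. GJA1 and RIDA had r = 0.81 (permutation p = 0.00585, adjusted 0.0614), rho = 0.64 (permutation p = 0.0542, adjusted 0.279) and r = 0.63 without those. By r, 0 of the 21 pairs had an adjusted p below 0.05. By r but not by rho, RIDA and GJA1 passed in their relation to the Schwann and sustentacular markers, to which they ran opposite (r = -0.85, permutation p = 0.00043, adjusted 0.0150, and r = -0.86, permutation p = 0.00158, adjusted 0.0369). Their rho was -0.84 (permutation p = 0.00389, adjusted 0.124) and -0.76 (permutation p = 0.0153, adjusted 0.182), and r without the NAMs farthest from the median -0.78 and -0.70. The sum of those markers lay between 59.7 and 175 CPM for the NAMs and between 2.39 and 245 CPM for the PPGLs, CDH19 being the most abundant in NAMs, and their part in the results was not tested.

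**Figure D3:**
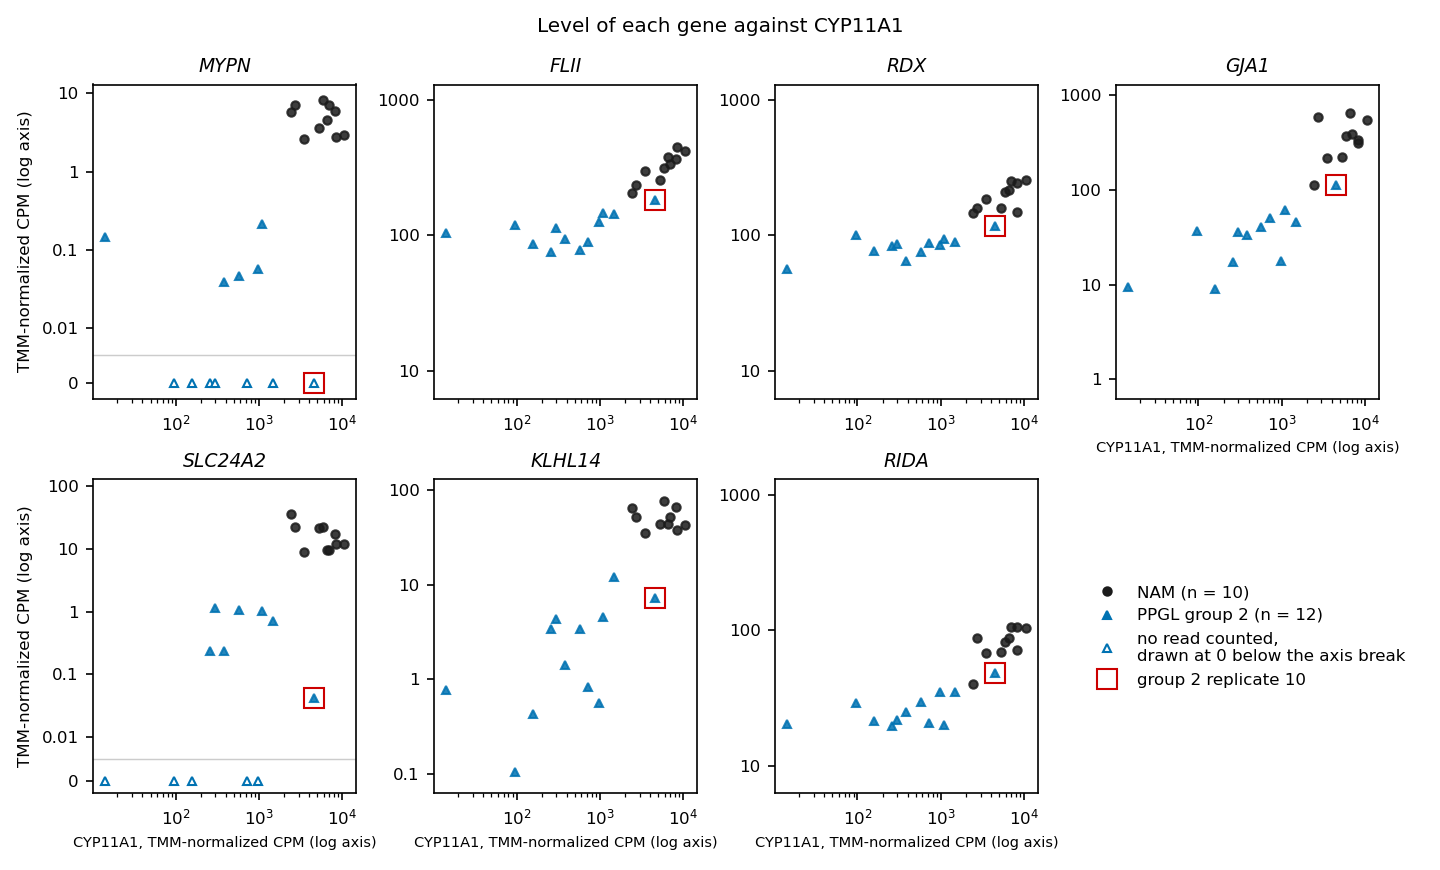
Each panel plots 1 gene against CYP11A1, both as TMM-normalized CPM on log axes, for 10 NAMs and 12 tumors of PPGL group 2, with group 2 replicate 10 boxed. At 4539.98 CPM of CYP11A1 this tumor had no MYPN read, while its FLII was at 181 CPM, below the lowest NAM at 206 CPM.

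Cortical content also varied among the group 2 tumors, and 9 of 9 other cortical markers had a positive slope on CYP11A1 there, with a median of 0.82. Across these 12 tumors edgeR called 0 of the 6 genes tested, beside 0.437% of 15772 genes (0.425% with a positive and 0.0127% with a negative slope). At an unadjusted p below 0.05 it had 3 of the 6, KLHL14, GJA1 and RIDA, beside 1116 of all 15772 genes. DESeq2 had 4 of the 6, beside 1580 of all genes, and called GJA1 (FDR-adjusted p = 0.0103). GJA1 had a slope of 0.38 (SE 0.09, FDR-adjusted p = 0.140) with r = 0.76 (permutation p = 0.00422, adjusted over 6 relations 0.0253) and rho = 0.76 (permutation p = 0.00549). KLHL14 had a slope of 0.50 (SE 0.19, FDR-adjusted p = 0.597) with r = 0.60 (permutation p = 0.0365) and rho = 0.69 (permutation p = 0.0171). RDX had r = 0.70 (permutation p = 0.0140, adjusted 0.0421) and rho = 0.54 (permutation p = 0.0751, adjusted 0.113), but a slope of 0.08. Without replicates 7 and 10, the tumors farthest from the median, r was 0.47 for GJA1, 0.62 for KLHL14 and 0.04 for RDX. The r of RDX thus depended on those tumors and that of GJA1 did in part, again over a narrower range of CYP11A1. RIDA, FLII and SLC24A2 had slopes of 0.12, 0.09 and 0.57 (FDR-adjusted p = 0.645, 0.771 and 0.948), with r = 0.60, 0.50 and 0.31 (permutation p = 0.0381, 0.0987 and 0.334), rho = 0.50, 0.59 and 0.33 (permutation p = 0.103, 0.0473 and 0.288), and r = 0.30, 0.43 and 0.39 without replicates 7 and 10. With 1 tumor left out, the slopes in group 2 ran from 0.22 (without replicate 7) to 0.90 (without replicate 10) for SLC24A2 and from 0.05 (without replicate 10) to 0.15 (without replicate 7) for FLII. They ran from 0.07 (without replicate 10) to 0.15 for RIDA, from 0.05 (without replicate 7) to 0.11 for RDX, from 0.32 to 0.44 for GJA1 and from 0.40 to 0.72 for KLHL14.

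Replicate 10 of group 2, singled out after its values had been seen, was the tumor with CYP11A1 in the range of the NAMs, and its levels are a description. Its chromaffin markers summed to 80061 CPM and were led by CHGB at 59391 CPM. MYPN had no read in it, and SLC24A2 had 1 read at 0.0421 CPM. KLHL14 was at 7.24 CPM, 14.0% of the NAM mean, and GJA1 at 114 CPM, 30.3% of it. RDX, FLII and RIDA were at 59.7%, 55.5% and 59.3% of the NAM mean, the highest tumor value of each. Group 1 gives the other end: with a mean CYP11A1 of 7.01 CPM, its tumors kept 38.7% of the NAM mean of RDX, 28.0% of FLII and 25.03% of RIDA, and 3.84% of GJA1, 1.34% of SLC24A2 and 0.962% of KLHL14.

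With CYP11A1 as a covariate in the fit of PPGLs against NAMs, the log2 FC was -6.41 for MYPN (-7.36 without it), -5.28 for SLC24A2 (-5.75), -3.10 for KLHL14 (-4.53) and -2.91 for GJA1 (-3.64). It was -1.40 for FLII (-1.64), -1.33 for RIDA (-1.73) and -1.11 for RDX (-1.27). All 7 stayed negative, which the choice of the genes makes likely, and no test is given. The values of MYPN depend on the prior count, since group 1 had no read, and are no bound. CYP11A1 itself differed between the tissues, so this fit also removes differences that run along with it. In this fit the median log2 FC of the radixin list turned to 0.13 and that of the calcium transporters to -0.02. It was 0.47 for the Z-disc and palladin genes (2 rose and 1 fell), 0.48 for the junction genes (4 rose), 0.15 for the kelch-like genes (4 rose and 1 fell), -0.15 for the amino acid enzymes (3 fell) and -0.00 for the gelsolin list (1 fell). Of the marker lists, 2 endothelial markers fell, 1 chromaffin marker rose and 1 fell, 3 fibroblast markers rose and 1 smooth muscle marker rose, 1 hepatocyte marker rose and 1 striated muscle marker other than CKM fell in it, while leukocyte, capsule, and Schwann and sustentacular markers did not pass, and the cortical markers, to which CYP11A1 belongs, are not read from it. Among the genes named above, PALLD and SLC9A3R1 still passed in it, whereas TJP1, GJC1, ACTN1, ACTN2, KLHL40, TOR1A and CKM did not (FDR-adjusted p = 0.146, 0.442, 0.0597, 0.0569, 0.0852, 0.207 and 0.649).

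To see which genes varied most like each of the 7, the r of log2 CPM over all 29 samples was taken after the mean of each group had been subtracted, as a description with no p. FLII ran with POR at r = 0.85, the reductase that passes electrons to steroid-making cytochromes, and with CHCHD10 and METTL26 at 0.81. GJA1 ran with ITGA6 at 0.83, an integrin subunit, EVA1A at 0.82 and PHLDB2 at 0.79. KLHL14 ran with RUFY4 at 0.80, KCNK2, a potassium channel, at 0.79 and SLC30A8, a zinc transporter of secretory granules, at 0.78 (by edgeR, all 3 fell in PPGLs, with log2 FC -1.87, -2.57 and -2.99). Within group 2 the r of these genes was 0.83, 0.89 and 0.83, and within NAMs it was -0.11, -0.18 and 0.01. SLC24A2 ran with KCNH5 at 0.74, NEFL at 0.70 and CALB2 at 0.69. NEFL fell from 114 to 15.7 CPM, while KCNH5 and CALB2 did not pass (FDR-adjusted p = 0.301 and 0.0551). RDX ran with CDYL2 at 0.78, EEA1 at 0.75 and PLCB1 at 0.75, and RIDA with NDUFV2 at 0.75, PSMD7 at 0.72 and BAG1 at 0.72. MYPN had its closest genes at a lower r, BCOR, ZNF687 and PHF12 at 0.57, and in tumors its level was at or near 0. Among the 7 themselves, KLHL14 and SLC24A2 had the highest r by this measure, at 0.57.

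The nearest named gene on each side was examined for all 7, which gave 14 neighbors, of which 10 were tested between PPGLs and NAMs. Of these 5 fell and 2 rose, with a median log2 FC of -0.33 beside 0.13 over all genes. FDX1, 85890 bases from RDX, is the electron donor of CYP11A1 and fell most (log2 FC -3.15, SE 0.58). MIEF2 and LLGL1 on either side of FLII fell as well (log2 FC -0.96 and -0.59), as did GAREM1 next to KLHL14 (log2 FC -1.05) and ACER2 next to SLC24A2 (log2 FC -0.57). TBC1D32 next to GJA1 and ATOH7 next to MYPN rose (log2 FC 0.50 and 1.24). HERC4 next to MYPN (log2 FC -0.09, FDR-adjusted p = 0.657) and ZC3H12C next to RDX (log2 FC 0.17, FDR-adjusted p = 0.594) did not pass.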

How the data were processed

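The authors counted single-end reads of stranded mRNA libraries, aligned to CanFam3.1 with STAR, over the exons of each Ensembl gene, and the deposited table gives raw counts with each gene's exon length in bases; 2 outlier tumors had been excluded by the authors. The version of the counting tool and its strand setting are not given in the sources used here. Samples were grouped by their labels. The members and lists were chosen with earlier results of these data known. Genes with low counts were removed with filterByExpr (minimum count 10, total 15), and edgeR 4.0.16 (R 4.3.3, limma 3.58.1) fitted TMM-normalized counts by quasi-likelihood, with Benjamini-Hochberg adjustment over all genes tested (thresholds 0.05, and 0.1 between the PPGL groups). Slopes used log2 CPM of CYP11A1 with a prior count of 2. The p-values of r and rho came from 100000 permutations, two-sided, in scipy 1.17.1 and numpy 2.4.6 under Python 3.11.15, with r also given without the 2 samples farthest from the median of the first variable. Alternatives were DESeq2 size factors, library size, no filter, the DESeq2 1.42.0 Wald test, the Mann-Whitney U-test, CYP11A1 as a covariate, the replicate number as a block, other marker lists in place of CYP11A1, and leaving out samples. Besides the members, the text names genes of 7 fixed lists and 10 lists of cell type markers (20 list genes were not found by name), the 3 genes most alike to each member, and the nearest named gene on either side. A group with no read was set to 3 reads per library, scaled by the sum of counted reads without TMM normalization, to give a bound. The main edgeR fits of the comparisons and slopes were tested on simulated counts with known changes, and the other steps were not. Promoter motifs were not analysed here.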

Additional observations from a re-analysis of the deposited data

Results flagged for a closer look

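RIDA in NAM replicate 4 was set apart from the other NAMs, at 39.8 CPM against 67.7 CPM in the next lowest sample. On the log2 scale, the gap was 0.541 of the range of the 10 NAMs. This was the only 1 of 15 groups of values checked on that scale in which the lowest or highest sample was set apart, and chance alone sets apart about 1 in 20 such groups. NAM replicate 4 was also the lowest NAM in CYP11A1 (2408 CPM), GJA1, RDX and FLII. Without it, the slope of RIDA on CYP11A1 was 0.19 rather than 0.37. Neither a technical nor a biological cause was tested.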

How the results depend on the processing

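The alternatives gave 414 values of the 7 genes, of which 10 per gene compared PPGLs with NAMs. For that comparison no test is given, and the choice of the genes made the direction likely, so nothing is read from its stability. Of all 414 values, 390 kept their direction and, where a test is given, their side of the threshold. The others were 16 that passed it where edgeR had not, 1 that no longer passed (FLII without NAM replicate 4, slope 0.42), 1 that moved by more than 1 SD between samples (MYPN with CYP11A1 as a covariate, log2 FC -6.41), and 6 that changed sign. By the 95% interval of the fit without that covariate instead, KLHL14 (-3.10) and RIDA (-1.33) moved with it, and MYPN did not. With chromaffin markers in place of CYP11A1, slopes were -0.50 for FLII, -0.46 for RIDA, -0.79 for GJA1, -0.39 for RDX and 0.72 for SLC24A2. Those markers ran opposite to CYP11A1 across the NAMs (r = -0.73). KLHL14 ranged from -0.17 to 0.053, the latter without NAM replicate 4, and the cause was not tested. The PPGLs against NAMs gave 5541 genes, 3170 with CYP11A1 as a covariate, 5790 without group 1 replicate 7 and 5716 without group 2 replicate 11, the only tumors left out singly there. The PPGL groups gave 1015 genes, 1793 by DESeq2, 392 by the Mann-Whitney U-test, 328 without the 3 group 1 tumors low in chromaffin markers (an alternative chosen after the data were seen, like those without group 2 replicate 11 and with 1 library left out of each fold of means), and 525 (without group 1 replicate 7) to 1218 (without group 1 replicate 1) with 1 tumor left out, 674 without group 2 replicate 4. Slopes across NAMs gave 2665 genes, 4010 by DESeq2, and 318 (without NAM replicate 4) to 3650 (without NAM replicate 3), with 1590 and 862 without NAM replicates 6 and 8. Slopes in group 2 gave 69 genes, 228 by DESeq2, and 16 (without replicate 10) to 78 (without replicate 12). The causes of these shifts were not tested. With a replicate block the PPGL groups gave 47 genes and the PPGLs against NAMs 4653; same-numbered samples are different animals, 0 of 7 pairs of group 1 and group 2 tumors correlated best with their own number (r -0.12 to 0.05), nor did any of 7 of NAMs and group 1 (-0.07 to 0.04), while 2 of 10 of NAMs and group 2 did (-0.23 to 0.25), and the block changed no call of the 7 genes. With 1 tumor left out, the log2 FC between the PPGL groups was -3.45 to -2.29 for KLHL14, -1.82 to -1.16 for GJA1, -0.22 to -0.06 for RDX, -0.44 to -0.22 for FLII and -0.51 to -0.29 for RIDA. With 1 NAM left out, slopes were 0.42 to 0.49 for FLII, 0.19 to 0.58 for RIDA, 0.05 to 0.97 for GJA1, 0.28 to 0.38 for RDX, -0.71 to -0.31 for SLC24A2 and -0.36 to -0.07 for MYPN. Depth limits MYPN and SLC24A2 in tumors, where 11 and 133 reads in 19 libraries carry the values. Neither passed the filter on low counts between the PPGL groups, so neither was tested there.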
